A study of Mus musculus with 22 samples.

Results

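VHL-deficient CD8+ T cells of the spleen were compared with wild-type (WT) CD8+ T cells of tumor on day 7, and WT spleen cells of the same day served as the baseline for both. The question was which differences of WT tumor cells from WT spleen cells also appear in spleen cells that lack VHL, and so hold hypoxia-inducible factor (HIF) active without being in tumor, and which do not. The libraries were taken by group name, with no measured value used, and are 6 of the 22 libraries of the series: 2 of VHL-deficient spleen, 2 of WT tumor and 2 of WT spleen. All 6 hold sorted P14 cells, CD8+ T cells with a transgenic receptor for a viral peptide, from C57BL/6 mice of 6 to 12 weeks of age, and the series text gives 5 mice for each biological replicate. The WT tumor cells were not divided by residency markers. How Vhl was deleted, which tumor was used and which event starts the count of days are details that no source used here gives.

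VHL is the subunit by which a ubiquitin ligase recognises HIF alpha subunits after prolyl hydroxylases have modified them in the presence of oxygen, and it marks them for destruction. Without VHL the alpha subunits persist, pair with ARNT and raise genes of glucose uptake, glycolysis, mitophagy and collagen hydroxylation. In T cells, antigen receptor signaling is also known to raise Hif1a message and glycolytic enzymes, along with inhibitory receptors, cytokines and cell division genes.

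HIF binds a core motif, ACGTG, in the DNA near many of its targets. The windows below, read from RefSeq on GRCm38.p6, run from 250 bases before to 50 bases after the transcription start of 4 HIF targets and of Rgs16, a gene high in WT tumor that had 1 read in VHL-deficient spleen. Capitals mark ACGTG and its reverse complement CACGT; they include any CACGTG, the E-box that other factors also bind. P4ha2 (chr11:54100674-54100973, plus strand) holds matches starting at -78 and 10 relative to the start, Egln3 (chr12:54203825-54204124, minus strand) at -229, Slc16a3 (chr11:120948817-120949116, plus strand) at -27 and -14, and Pgk1 (chrX:106186850-106187149, plus strand) at -150 and, on the other strand, at -131. The window of Rgs16 (chr1:153740103-153740402, plus strand) holds 0 matches. Of 32851 mouse windows of this length, 19.6% hold the motif on either strand and 7.15% hold CACGTG, so a match describes these letters and is no evidence of binding. A window without the motif, as at Rgs16, is the usual case. These few windows are examples and do not compare HIF targets with other genes.
P4ha2: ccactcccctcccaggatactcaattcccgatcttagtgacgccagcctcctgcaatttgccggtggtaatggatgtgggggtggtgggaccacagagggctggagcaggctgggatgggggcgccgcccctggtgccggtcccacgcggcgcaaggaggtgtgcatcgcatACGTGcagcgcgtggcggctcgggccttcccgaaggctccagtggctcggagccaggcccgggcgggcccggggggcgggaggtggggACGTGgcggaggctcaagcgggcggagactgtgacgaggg
Egln3: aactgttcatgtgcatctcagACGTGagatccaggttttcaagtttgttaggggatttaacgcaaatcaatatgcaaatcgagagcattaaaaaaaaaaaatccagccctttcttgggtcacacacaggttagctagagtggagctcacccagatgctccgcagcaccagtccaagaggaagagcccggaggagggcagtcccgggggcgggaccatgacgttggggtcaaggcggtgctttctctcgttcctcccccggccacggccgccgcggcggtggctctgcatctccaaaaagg
Slc16a3: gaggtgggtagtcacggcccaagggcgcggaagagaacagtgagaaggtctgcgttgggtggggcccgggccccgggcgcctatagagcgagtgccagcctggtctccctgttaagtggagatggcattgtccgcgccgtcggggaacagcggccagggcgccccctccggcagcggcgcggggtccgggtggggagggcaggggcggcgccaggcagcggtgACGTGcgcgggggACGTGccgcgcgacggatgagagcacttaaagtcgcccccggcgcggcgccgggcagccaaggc
Pgk1: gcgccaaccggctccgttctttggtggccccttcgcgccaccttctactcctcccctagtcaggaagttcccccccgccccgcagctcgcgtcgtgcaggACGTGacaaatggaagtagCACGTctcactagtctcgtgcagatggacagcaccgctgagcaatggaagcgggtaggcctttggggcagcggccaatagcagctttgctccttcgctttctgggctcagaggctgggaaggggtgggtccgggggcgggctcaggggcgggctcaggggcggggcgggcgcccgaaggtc
Rgs16: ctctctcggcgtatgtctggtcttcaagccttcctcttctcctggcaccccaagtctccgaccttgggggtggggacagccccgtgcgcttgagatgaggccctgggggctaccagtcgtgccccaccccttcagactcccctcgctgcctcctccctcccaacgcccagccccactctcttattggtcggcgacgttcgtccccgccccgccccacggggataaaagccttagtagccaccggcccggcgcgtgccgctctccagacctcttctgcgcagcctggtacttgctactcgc

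The 6 libraries held 3375558 to 7484400 reads assigned to genes, and 1 read is worth 0.82 to 2.35 scaled counts depending on the library. A scaled count is the read count divided by the authors' size factor, and all levels below are on that scale. Ribosomal RNA took 42.3% and 33.9% of the reads in VHL-deficient spleen, 30.3% and 32.2% in WT tumor and 36.0% and 29.0% in WT spleen, and the mitochondrial genome took 5.0% and 4.0%, 7.56% and 9.46%, and 6.68% and 6.07%. Replicates correlated at 0.93 (VHL-deficient spleen), 0.93 (WT tumor) and 0.94 (WT spleen) over the tested genes, VHL-deficient spleen with WT spleen at 0.89 to 0.92, and VHL-deficient spleen with WT tumor at 0.81 to 0.85. All 12 T-cell markers were tested, and their summed level was 43570 to 51620 in VHL-deficient spleen, 31820 to 41970 in WT tumor and 33200 to 36210 in WT spleen. The 12 macrophage and monocyte markers summed to 51.7 to 55.9, 69.8 to 96.4 and 27.8 to 50.3, with C1qa and Fcgr1 at 0 reads in all 6 libraries. The 8 melanoma markers summed to 88.6 to 98.3, 30.6 to 37.1 and 66.8 to 68.1, with Slc45a2 and Sox10 at 0 reads. Of the 3 melanoma markers tested, 1 was higher in VHL-deficient spleen than in WT tumor. The 8 neutrophil markers summed to 0 to 2.46, 4.70 to 5.45 and 4.18 to 4.19, with S100a8, Retnlg and Mpo at 0 reads. The 9 B-cell markers summed to 578 to 619, 533 to 1032 and 1188 to 1225. Nuclear long RNAs such as Malat1, a sign of RNA quality, summed to 10770 to 15270, 5683 to 5915 and 11610 to 12390, so their level was lower in WT tumor than in both spleen groups. Of 10 dendritic-cell markers, which include genes of MHC class II, 7 were tested, 3 of them were higher in VHL-deficient spleen than in WT tumor, and the sum was 1433 to 1610, 256 to 424 and 943.5 to 1294; of 7 CD4 T-cell markers, which include Ctla4 and Il2ra, all were tested and the sum was 1500 to 1594, 4379 to 4623 and 337 to 454. The part of these differences in the results was not tested. Replicate 2 of the VHL-deficient nonTrm tumor cells, which enters the shared estimate of spread and no comparison here, stood apart with 45.7% ribosomal RNA.

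Vhl (chr6:113623959-113631633 on mm10), the deleted gene, was measured at 20.1 and 9.02 in VHL-deficient spleen, 177 and 141 in WT tumor and 138 and 111 in WT spleen. Both VHL-deficient libraries lay below all 4 WT libraries. The change was -3.45 ± 0.80, adjusted p = 0.00413 in VHL-deficient spleen against WT tumor, and -3.10 ± 0.80, adjusted p = 0.0361 against WT spleen. Here and below a change is the difference in log2(scaled count + 1) with its standard error, and adjusted p is limma's, adjusted by Benjamini-Hochberg over 14327 genes. A direct change or difference is VHL-deficient spleen minus WT tumor. The call against WT spleen was lost on leaving out any 1 of the 4 spleen libraries (adjusted p 0.0804 to 0.224), and the call against WT tumor without VHL-deficient spleen replicate 2 (adjusted p = 0.0544). Reads may fall outside the deleted part of the gene, which the sources used here do not give.

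Genes of oxygen sensing differed between the groups in level and in direction. Hif1a, the alpha subunit itself, stood at 277 and 341 in VHL-deficient spleen, 3669 and 2109.5 in WT tumor and 412 and 511 in WT spleen. Its message was high in both tumor libraries and low in all 4 spleen libraries, and it differed between VHL-deficient spleen and WT tumor by -3.17 ± 0.29, adjusted p = 1.47e-07, and between WT tumor and WT spleen by 2.60 ± 0.29, adjusted p = 2.05e-06. Egln3, a prolyl hydroxylase that is itself a HIF target, was highest in VHL-deficient spleen, with 1254 and 1183 in VHL-deficient spleen, 122 and 125 in WT tumor and 23.7 and 31.4 in WT spleen. Its 3 groups did not overlap, and VHL-deficient spleen exceeded WT tumor by 3.29 ± 0.29, adjusted p = 1.11e-07. Epas1, the HIF-2 alpha subunit (103 and 73.8 in VHL-deficient spleen, 81.8 and 32.9 in WT tumor and 50.1 and 66.0 in WT spleen), and Arnt, the shared partner (148 and 153 in VHL-deficient spleen, 229 and 122 in WT tumor and 128 and 168 in WT spleen), passed the test in none of the 3 comparisons. The prolyl hydroxylases Egln1 and Egln2 were also higher in VHL-deficient spleen than in WT tumor, by 0.87 ± 0.30 and 0.78 ± 0.27, but both calls were lost on leaving out any 1 of the 4 libraries compared (adjusted p 0.0864 to 0.2 for Egln1 and 0.0941 to 0.194 for Egln2). Of the 14 oxygen-sensing genes, 4 were higher and 3 lower in VHL-deficient spleen than in WT tumor. Of all genes, 9.76% were higher and 11.5% lower in that comparison. Against WT spleen, 3 of the 14 were higher and 1 lower in VHL-deficient spleen, 28.6% where 3.18% of all genes were called. Over the alternatives tried these counts ran from 1 to 3 and from 0 to 1. The 1 lower is Vhl, the deleted gene, and the higher ones include the HIF targets Egln3 and Egln1. This share is therefore not independent of the deletion. In WT tumor against WT spleen 3 were higher and 0 lower, 21.4% where 21.5% of all genes were called.

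Over the whole table, 3041 of 14327 genes (21.2%) differed between VHL-deficient spleen and WT tumor, 1399 higher (9.76%) and 1642 lower (11.5%) in VHL-deficient spleen. WT tumor differed from WT spleen at 3079 genes (21.5%), of which 1889 were higher (13.2%) and 1190 lower (8.31%) in tumor. VHL-deficient spleen differed from WT spleen at 455 genes (3.18%), of which 350 were higher (2.44%) and 105 lower (0.733%). The 2 libraries of one group did not overlap the 2 of the other at 58.1%, 60% and 43.6% of all tested genes in these comparisons, so non-overlap alone sets no gene apart. In bulk libraries fewer cells of a type and less RNA per cell cannot be told apart. Without the VHL-deficient nonTrm library that stood apart, 3833, 3980 and 642 genes were called. The first count was 1648, 2011 and 1791 without VHL-deficient spleen replicate 1, VHL-deficient spleen replicate 2 and WT tumor replicate 2. The second was 1881, 1633 and 1486 without WT spleen replicate 1, WT spleen replicate 2 and WT tumor replicate 2, and the third was 231, 264 and 279 without VHL-deficient spleen replicate 1, WT spleen replicate 1 and WT spleen replicate 2. Scaling by the reads outside ribosomal RNA and the mitochondrial genome moved the median change of all genes from -0.03 to 0.22 in VHL-deficient spleen against WT tumor, from 0.08 to -0.31 in WT tumor against WT spleen and from 0.04 to -0.10 in VHL-deficient against WT spleen. The share of calls that were higher then went from 46.0% to 61.8% (1976 higher and 1220 lower), from 61.4% to 37.0% (1244 and 2119), and from 76.9% to 74.4% (311 and 107).

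Of the 1889 genes that rose in WT tumor, 192 (10.2%) also rose in VHL-deficient spleen against the same WT spleen libraries, and 26 (1.38%) fell. The other 1671 (88.5%) were not called there, and 1086 of these were also lower in VHL-deficient spleen than in WT tumor when the 2 groups were compared directly. The remaining 585 were called in neither. Of the 1190 genes that fell in WT tumor, 24 (2.02%) also fell in VHL-deficient spleen, 11 (0.924%) rose and 1155 (97.1%) were not called; 758 of those were higher in VHL-deficient spleen than in WT tumor. Seen from the other side, 192 of the 350 genes that rose in VHL-deficient spleen (54.9%) rose in WT tumor and 11 (3.14%) fell there. Of the 105 that fell in VHL-deficient spleen, 24 (22.9%) fell in WT tumor and 26 (24.8%) rose there. Of all genes, 13.2% rose and 8.31% fell in WT tumor. The 2 comparisons share the WT spleen libraries, so their counts are not independent of each other. The direct comparison shares the WT tumor libraries with the comparison that chose the 1889 and 1190 genes, so the 1086 and 758 are not independent of that choice either. Among the 192 genes, 135 showed no call between VHL-deficient spleen and WT tumor, 27 went further in VHL-deficient spleen and 30 stopped short. The number called higher in both was 123 without VHL-deficient spleen replicate 1 and 130 to 175 without any other 1 of the 6 libraries. The number called lower in both was 6, 15, 4, 5 and 11 without VHL-deficient spleen replicates 1 and 2, WT spleen replicates 1 and 2 and WT tumor replicate 2, so this count rests on single libraries.

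**Figure D1:**
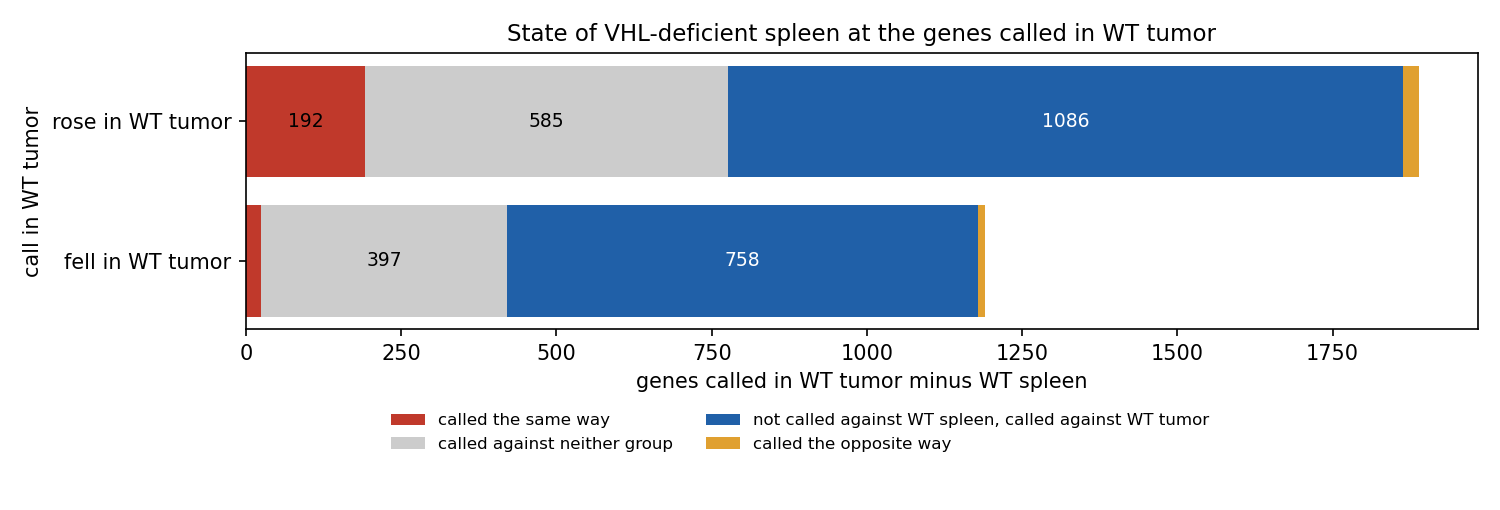
Genes called in WT tumor minus WT spleen (horizontal axis, number of genes), split by the state of VHL-deficient spleen, for the 1889 genes that rose in WT tumor and the 1190 that fell. The red segment holds the 192 and 24 genes called the same way, gray the 585 and 397 called against neither group, blue the 1086 and 758 called against WT tumor and not against WT spleen, and yellow the 26 and 11 called the opposite way.

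Glycolytic HIF targets rose both in VHL-deficient spleen and in WT tumor, and some were higher in VHL-deficient spleen than in WT tumor. Of 23 such genes, all tested, 16 rose in WT tumor and 16 in VHL-deficient spleen against WT spleen, and the 16 that rose in WT tumor all rose in VHL-deficient spleen. Called were 69.6% of the list in WT tumor, 69.6% in VHL-deficient spleen and 26.1% directly, where 21.5%, 3.18% and 21.2% of all genes were. The list's median change was 1.32 in WT tumor, 2.35 in VHL-deficient spleen and 0.53 directly, where the medians of all genes were 0.08, 0.04 and -0.03. Directly against WT tumor, 6 were higher in VHL-deficient spleen (2 to 10 over the alternatives tried), 0 were lower and the rest showed no call. At an unadjusted p under 0.05, 11 were higher and 0 lower directly, and on voom weights 4 were called higher and 0 lower. The list was described with earlier results of these data known, and its summed level was 80060 to 83640 in VHL-deficient spleen, 66000 to 81690 in WT tumor and 13240 to 13930 in WT spleen.

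Among the enzymes that split and oxidise glucose carbon, Pgk1, phosphoglycerate kinase (chrX:106187100-106203699), measured 1607 and 1469 in VHL-deficient spleen, 1144 and 1632 in WT tumor and 159 and 140.4 in WT spleen. The VHL-deficient and tumor libraries lay within one range, about an order of magnitude above WT spleen. The change was 3.19 ± 0.25, adjusted p = 2.43e-08 in WT tumor and 3.36 ± 0.25, adjusted p = 3.02e-08 in VHL-deficient spleen. For Pgk1 the direct difference was 0.17 ± 0.25, adjusted p = 0.679. Tpi1, triose phosphate isomerase, stood at 6846 and 6262 in VHL-deficient spleen, 3807 and 5385 in WT tumor and 379.9 and 285 in WT spleen, which differed from WT tumor by 0.53 ± 0.32, adjusted p = 0.261. Ldha, which makes lactate from pyruvate, stood at 14418 and 13399 in VHL-deficient spleen, 15489 and 22962 in WT tumor and 2968 and 2489 in WT spleen. Its level was high in all 4 VHL-deficient and tumor libraries, rising by 2.79 ± 0.36, adjusted p = 1.3e-05 in WT tumor and 2.35 ± 0.36, adjusted p = 0.000286 in VHL-deficient spleen. Pkm, pyruvate kinase, rose by 2.92 ± 0.29, adjusted p = 4.24e-07 and 2.70 ± 0.29, adjusted p = 3.89e-06, and its direct difference was -0.21 ± 0.29, adjusted p = 0.639. Aldoa, Gapdh, Eno1 and Pgam1, further enzymes of the same route, rose in both and showed no call directly, with direct differences of 0.41 ± 0.37, -0.44 ± 0.34, 0.06 ± 0.33 and -0.20 ± 0.33. An adjusted p above the threshold does not show that these levels were equal.

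Transport of glucose and the first enzymes differed more. Slc2a1, the glucose transporter GLUT1 (chr4:119108711-119137983), was at 840.4 and 870.4 in VHL-deficient spleen, 316 and 287 in WT tumor and 131 and 152 in WT spleen. Each VHL-deficient library was above each tumor library, and each tumor library above each WT spleen library. VHL-deficient spleen exceeded WT tumor by 1.5 ± 0.28, adjusted p = 0.000669, and WT spleen by 2.59 ± 0.28, adjusted p = 6.36e-06. WT tumor exceeded WT spleen by 1.09 ± 0.28, adjusted p = 0.00952, a call lost without WT spleen replicate 1 (adjusted p = 0.0734) and under scaling without ribosomal and mitochondrial reads (adjusted p = 0.146). Hk2, the hexokinase that traps glucose in the cell, was at 358 and 329.8 in VHL-deficient spleen, 205 and 61.1 in WT tumor and 18.1 and 29.3 in WT spleen, and Pfkl, a phosphofructokinase, at 2367 and 3094 in VHL-deficient spleen, 1089.5 and 1082 in WT tumor and 377 and 645 in WT spleen. Both were above WT tumor, by 1.61 ± 0.50, adjusted p = 0.0255 and by 1.32 ± 0.36, adjusted p = 0.0133. The call of Hk2 was lost without VHL-deficient spleen replicate 1, VHL-deficient spleen replicate 2 or WT tumor replicate 2 (adjusted p = 0.118, 0.084 and 0.399), and that of Pfkl without VHL-deficient spleen replicate 2 or either WT tumor replicate (adjusted p = 0.107, 0.0508 and 0.0666). Aldoc, a second aldolase, was at 1205 and 1308 in VHL-deficient spleen, 161 and 205 in WT tumor and 32.0 and 6.29 in WT spleen, and exceeded WT tumor by 2.78 ± 0.47, adjusted p = 0.00025. Slc16a3, the lactate exporter MCT4, rose from 30.6 and 21.0 in WT spleen to 736 and 722 in WT tumor and 1301 and 1399.5 in VHL-deficient spleen, 4.79 ± 0.30 and 5.68 ± 0.30. The direct change of Slc16a3, 0.89 ± 0.30, adjusted p = 0.0399, was a call lost on leaving out any 1 of the 4 libraries (adjusted p 0.106 to 0.156). Pdk1, the kinase that inhibits pyruvate dehydrogenase, was at 724 and 906 in VHL-deficient spleen, 506 and 301 in WT tumor and 287 and 433 in WT spleen and passed the test in none of the 3 comparisons.

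**Figure D2:**
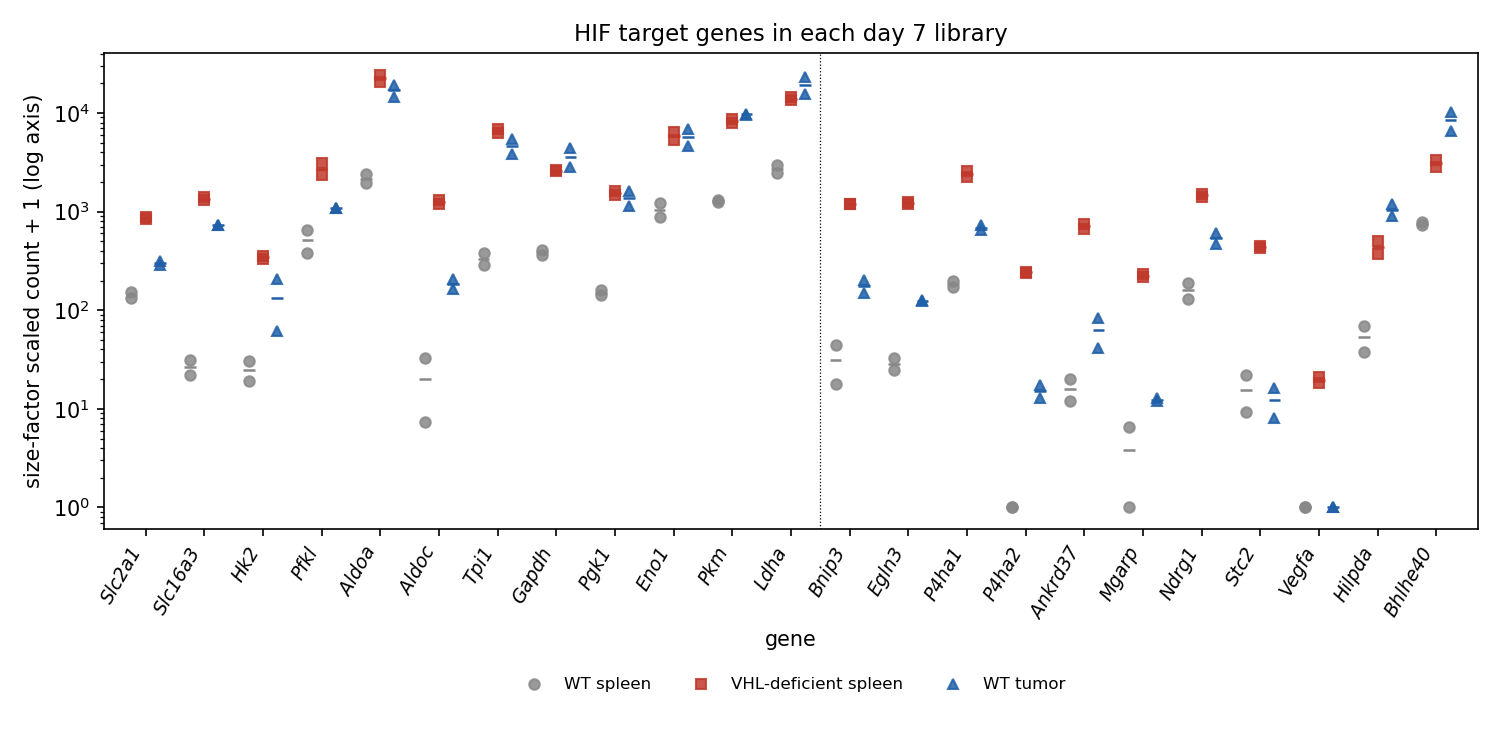
Size-factor scaled count + 1 (log axis) of 23 HIF targets, 12 of glucose uptake and glycolysis left of the dotted line and 11 others right of it. Each point is 1 library (gray circles WT spleen, red squares VHL-deficient spleen, blue triangles WT tumor) and each dash a group mean; for Pgk1, Pkm and Ldha the red and blue points lie together, while for Egln3, Bnip3, P4ha2, Stc2 and Vegfa the red points lie above the blue.

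Outside glycolysis, VHL-deficient spleen went past WT tumor at many HIF targets. Of 31 tested genes, 20 rose in VHL-deficient spleen against WT spleen and 15 in WT tumor, and the 15 were all among the 20. Directly, 16 were higher in VHL-deficient spleen than in WT tumor (10 to 17 over the alternatives tried) and 1, Bhlhe40, was lower. Called were 48.4% of the list in WT tumor, 64.5% in VHL-deficient spleen and 54.8% directly, where 21.5%, 3.18% and 21.2% of all genes were. The list's median change was 1.73 in WT tumor, 2.03 in VHL-deficient spleen and 1.08 directly, where all genes stood at 0.08, 0.04 and -0.03. P4ha2, a collagen prolyl hydroxylase, stood at 239 and 243 in VHL-deficient spleen, 12.0 and 16.5 in WT tumor and 0 in each library in WT spleen. WT spleen had 0 reads, so VHL-deficient spleen was at least 65.9-fold and WT tumor at least 3.89-fold above it, taking 3 reads per library as the floor. The direct difference of P4ha2 was 4.01 ± 0.33, adjusted p = 5.94e-08. Bnip3, a mitophagy receptor, was at 1187 and 1198 in VHL-deficient spleen, 147 and 199.9 in WT tumor and 43.1 and 16.8 in WT spleen. Its order was the same. Bnip3 differed directly by 2.79 ± 0.34, adjusted p = 6.62e-06. Ndrg1, a hypoxia-induced stress gene, was at 1495 and 1419 in VHL-deficient spleen, 611 and 468 in WT tumor and 128 and 189 in WT spleen and differed directly by 1.44 ± 0.28, adjusted p = 0.000833. P4ha1, the companion of P4ha2, was higher by 1.81 ± 0.33, adjusted p = 0.000521 and Ankrd37 by 3.59 ± 0.51, adjusted p = 4.08e-05.

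Vegfa, Stc2, Egln1, Narf and Ak4 rose in VHL-deficient spleen with no call in WT tumor. Vegfa, the angiogenic factor (chr17:46016993-46032369), had 20.1 and 17.2 in VHL-deficient spleen and 0 reads in all 4 WT libraries, at least 3.62-fold above WT tumor and at least 5.10-fold above WT spleen. Stc2, a secreted glycoprotein, was at 422 and 445 in VHL-deficient spleen, 15.3 and 7.06 in WT tumor and 8.35 and 21.0 in WT spleen. Its tumor and WT spleen libraries overlapped, and VHL-deficient spleen exceeded WT tumor by 5.25 ± 0.56, adjusted p = 1.25e-06, and WT spleen by 4.92 ± 0.56, adjusted p = 7.92e-06. Ak4, an adenylate kinase of mitochondria, was at 82.7 and 81.2 in VHL-deficient spleen, 17.4 and 0 in WT tumor and 0 in each library in WT spleen, at least 22.4-fold above WT spleen; its difference from WT tumor, 4.27 ± 0.99, adjusted p = 0.00402, was lost without WT tumor replicate 2 (adjusted p = 0.136). Mgarp, a mitochondrial protein called in all 3 comparisons, was at 217 and 231 in VHL-deficient spleen, 10.9 and 11.8 in WT tumor and 5.57 and 0 in WT spleen. It exceeded WT tumor by 4.19 ± 0.56, adjusted p = 1.84e-05, and its call in WT tumor against WT spleen (2.27 ± 0.56, adjusted p = 0.00662) was lost without WT spleen replicate 2 (adjusted p = 0.203). In the reverse direction, Hilpda, a lipid-droplet protein, was at 498 and 373 in VHL-deficient spleen, 1189.8 and 905 in WT tumor and 68.2 and 36.7 in WT spleen, and rose in both against WT spleen with a direct difference of -1.26 ± 0.54, adjusted p = 0.101. Bhlhe40, a transcriptional repressor that T-cell activation also raises, was at 2841 and 3326 in VHL-deficient spleen, 10197 and 6594 in WT tumor and 725 and 781 in WT spleen. Both tumor libraries were above both VHL-deficient libraries, a direct change of -1.42 ± 0.33, adjusted p = 0.00416, a call lost without VHL-deficient spleen replicate 1 (adjusted p = 0.0513) or WT tumor replicate 1 (adjusted p = 0.0592). Car9 (13 reads in WT tumor, 1 in VHL-deficient spleen and 2 in WT spleen) and Adm (0 or 1 read per library) were hardly detected.

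Beyond the HIF lists, the genes called higher in both with the smallest adjusted p included Nfil3 and Prelid2. Nfil3, a leucine-zipper transcription factor of lymphocytes, was at 554 and 664 in VHL-deficient spleen, 498 and 492 in WT tumor and 72.4 and 38.8 in WT spleen. VHL-deficient and tumor libraries were all far above both WT spleen libraries. For Nfil3 the direct difference was 0.29 ± 0.32, adjusted p = 0.556. Prelid2, a member of a mitochondrial lipid-transfer family, was at 199 and 151 in VHL-deficient spleen, 72.0 and 136 in WT tumor and 5.57 and 2.10 in WT spleen. For Prelid2 the direct difference was 0.80 ± 0.37, adjusted p = 0.138. Tubb6, a beta tubulin, rose in both but far more in tumor, with 103 and 139 in VHL-deficient spleen, 744 and 1126 in WT tumor and 11.1 and 9.43 in WT spleen. Tubb6 differed directly by -2.92 ± 0.30, adjusted p = 7.31e-07. The metallothioneins Mt1 and Mt2, which bind metals, came to similar levels, Mt1 at 270.4 and 266 in VHL-deficient spleen, 262 and 341 in WT tumor and 4.17 and 27.2 in WT spleen, and Mt2 at 71.5 and 39.4 in VHL-deficient spleen, 53.4 and 70.6 in WT tumor and 0 in each library in WT spleen. With 0 reads of Mt2 in WT spleen, WT tumor was at least 16.9-fold and VHL-deficient spleen at least 15.2-fold above it, and the direct differences were -0.16 ± 0.73 and -0.21 ± 0.66. On voom weights both metallothioneins lost the call in VHL-deficient spleen (adjusted p = 0.0853 and 0.237).

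Fewer genes fell in both. Art2b, an ADP-ribosyltransferase of the T-cell surface, was at 6.70 and 10.7 in VHL-deficient spleen, 10.9 and 11.8 in WT tumor and 310.3 and 237 in WT spleen. All 4 VHL-deficient and tumor libraries were far below both WT spleen libraries, with changes of -4.46 ± 0.59, adjusted p = 1.94e-05 in WT tumor and -4.84 ± 0.59, adjusted p = 2.07e-05 in VHL-deficient spleen. Chd3, a chromatin remodeller, was at 84.9 and 75.5 in VHL-deficient spleen, 88.3 and 89.4 in WT tumor and 419 and 475 in WT spleen, changes of -2.31 ± 0.36 and -2.46 ± 0.36. Ifi213, an interferon-inducible gene, was at 148 and 100.1 in VHL-deficient spleen, 134 and 119.9 in WT tumor and 384 and 491 in WT spleen, with -1.77 ± 0.35 and -1.83 ± 0.35, the last lost without VHL-deficient spleen replicate 2 (adjusted p = 0.0685) or WT spleen replicate 2 (adjusted p = 0.0661). None of the 3 was called directly, with -0.38 ± 0.59, -0.15 ± 0.36 and -0.06 ± 0.35. Sidt1, a transmembrane protein, fell in both but further in tumor, with 519 and 389 in VHL-deficient spleen, 218 and 155 in WT tumor and 2240.4 and 2699.9 in WT spleen, a direct difference of 1.28 ± 0.40, adjusted p = 0.025, lost without VHL-deficient spleen replicate 1 (adjusted p = 0.171) or WT tumor replicate 2 (adjusted p = 0.181). Rnf138, a ubiquitin ligase, Usp32, a deubiquitinase, Camk2b, a calcium-dependent kinase, and Rfx2, a transcription factor of cilia genes, also fell in both, by -1.24 ± 0.29, -1.42 ± 0.34, -2.10 ± 0.47 and -3.49 ± 0.78 in VHL-deficient spleen. The calls of Rnf138 and Usp32 there were lost without any 1 of the 4 spleen libraries (adjusted p 0.0685 to 0.127 and 0.0727 to 0.157), that of Camk2b without either VHL-deficient library or WT spleen replicate 1 (adjusted p 0.0703 to 0.169), and that of Rfx2 without VHL-deficient spleen replicate 1 or either WT spleen library (adjusted p 0.0798 to 0.24). Their calls in WT tumor were lost for Usp32 without WT spleen replicate 2 or WT tumor replicate 2 (adjusted p 0.0647 to 0.0748), for Camk2b without WT spleen replicate 1 or WT tumor replicate 1 (adjusted p 0.175 to 0.212), and for Rfx2 without any 1 of the 4 WT libraries (adjusted p 0.0629 to 0.0876).

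Most inhibitory receptors and exhaustion factors rose in WT tumor and were lower in VHL-deficient spleen than in WT tumor. Of 19 tested genes, 13 rose in WT tumor, and 14 were lower in VHL-deficient spleen than in WT tumor (12 to 14 over the alternatives tried), with 1 higher. Against WT spleen, VHL-deficient spleen had 5 higher and 2 lower, 36.8% of the list where 3.18% of all genes were called. In either direction 73.7% of the list was called in WT tumor and 78.9% directly, where 21.5% and 21.2% of all genes were. The list's median change was 3.16 in WT tumor, 0.48 in VHL-deficient spleen and -2.63 directly. Pdcd1, which encodes the receptor PD-1 (chr1:94038305-94052553), stood at 38.0 and 54.1 in VHL-deficient spleen, 4034 and 3645 in WT tumor and 44.5 and 46.1 in WT spleen. The 4 spleen libraries lay together and the tumor libraries far above them. Pdcd1 differed directly by -6.37 ± 0.40, adjusted p = 1.82e-09. Nr4a2, an orphan nuclear receptor raised by antigen receptor signaling, stood at 22.3 and 26.3 in VHL-deficient spleen, 4139 and 3769.8 in WT tumor and 6.96 and 37.7 in WT spleen. Nr4a2 differed directly by -7.29 ± 0.44, adjusted p = 9.57e-10. Havcr2, the receptor TIM-3, was at 60.3 and 59.9 in VHL-deficient spleen, 1347 and 1025 in WT tumor and 19.5 and 37.7 in WT spleen, and differed directly by -4.27 ± 0.39, adjusted p = 1.86e-07; its change of 1.12 ± 0.39 in VHL-deficient spleen did not pass (adjusted p = 0.161). Nr4a3, a companion of Nr4a2, was at 15.6 and 9.02 in VHL-deficient spleen, 476 and 543 in WT tumor and 18.1 and 8.38 in WT spleen. Nr4a3 differed directly by -5.30 ± 0.34, adjusted p = 2.16e-09. Tox, a factor of the exhausted state, moved less, at 24.6 and 50.9 in VHL-deficient spleen, 111 and 113 in WT tumor and 50.1 and 52.4 in WT spleen, and its direct change of -1.63 ± 0.46, adjusted p = 0.0157 was lost without VHL-deficient spleen replicate 1, WT tumor replicate 1 or WT tumor replicate 2 (adjusted p = 0.193, 0.0574 and 0.0761).

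A few of these receptors rose part of the way. Ctla4, an inhibitory receptor, was at 1193 and 1362 in VHL-deficient spleen, 3804 and 3666 in WT tumor and 255 and 139 in WT spleen. Its 3 groups did not overlap, and VHL-deficient spleen was above WT spleen by 2.75 ± 0.31, adjusted p = 7.24e-06 and differed from WT tumor by -1.55 ± 0.31, adjusted p = 0.00102. Tnfrsf9, the costimulatory receptor 4-1BB, had the same order, with 261 and 275 in VHL-deficient spleen, 5866 and 5247 in WT tumor and 22.3 and 46.1 in WT spleen. It was above WT spleen by 3.02 ± 0.34, adjusted p = 7.7e-06 and differed from WT tumor by -4.37 ± 0.34, adjusted p = 2.53e-08. Lag3, another inhibitory receptor, was at 344 and 432 in VHL-deficient spleen, 5576 and 6340.3 in WT tumor and 178 and 191 in WT spleen. It differed from WT tumor by -3.94 ± 0.25, adjusted p = 1.82e-09, and its rise against WT spleen of 1.06 ± 0.25, adjusted p = 0.0198 was lost on leaving out any 1 of the 4 spleen libraries (adjusted p 0.061 to 0.173). Nr4a1, a companion of Nr4a2, was at 69.3 and 61.5 in VHL-deficient spleen, 2937 and 3452 in WT tumor and 12.5 and 15.7 in WT spleen. It was above WT spleen by 2.14 ± 0.37, adjusted p = 0.00116, a call lost on voom weights (adjusted p = 0.221), and differed from WT tumor by -5.59 ± 0.37, adjusted p = 2.72e-09. Of 13 costimulatory genes, 6 rose and 1 fell in WT tumor, 5 rose and 1 fell in VHL-deficient spleen, and directly 3 were higher and 5 lower. That is 53.8%, 46.2% and 61.5% of the list, where 21.5%, 3.18% and 21.2% of all genes were called. Tnfrsf4, the receptor OX40, stayed low in spleen at 29.1 and 11.5 in VHL-deficient spleen, 723 and 877 in WT tumor and 6.96 and 23.0 in WT spleen. Tnfrsf4 differed directly by -5.36 ± 0.56, adjusted p = 1.01e-06. Tnfsf8, the ligand CD30L, was lowest in VHL-deficient spleen, at 96.1 and 96.8 in VHL-deficient spleen, 493 and 506 in WT tumor and 262 and 296 in WT spleen, with -1.52 ± 0.28, adjusted p = 0.00227 against WT spleen. Slamf7, a receptor of activated lymphocytes, departed from the rest at 3214 and 2580.0 in VHL-deficient spleen, 455 and 562 in WT tumor and 605 and 562 in WT spleen. Both VHL-deficient libraries were above all 4 WT libraries. Slamf7 differed directly by 2.51 ± 0.26, adjusted p = 9.04e-07.

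**Figure D3:**
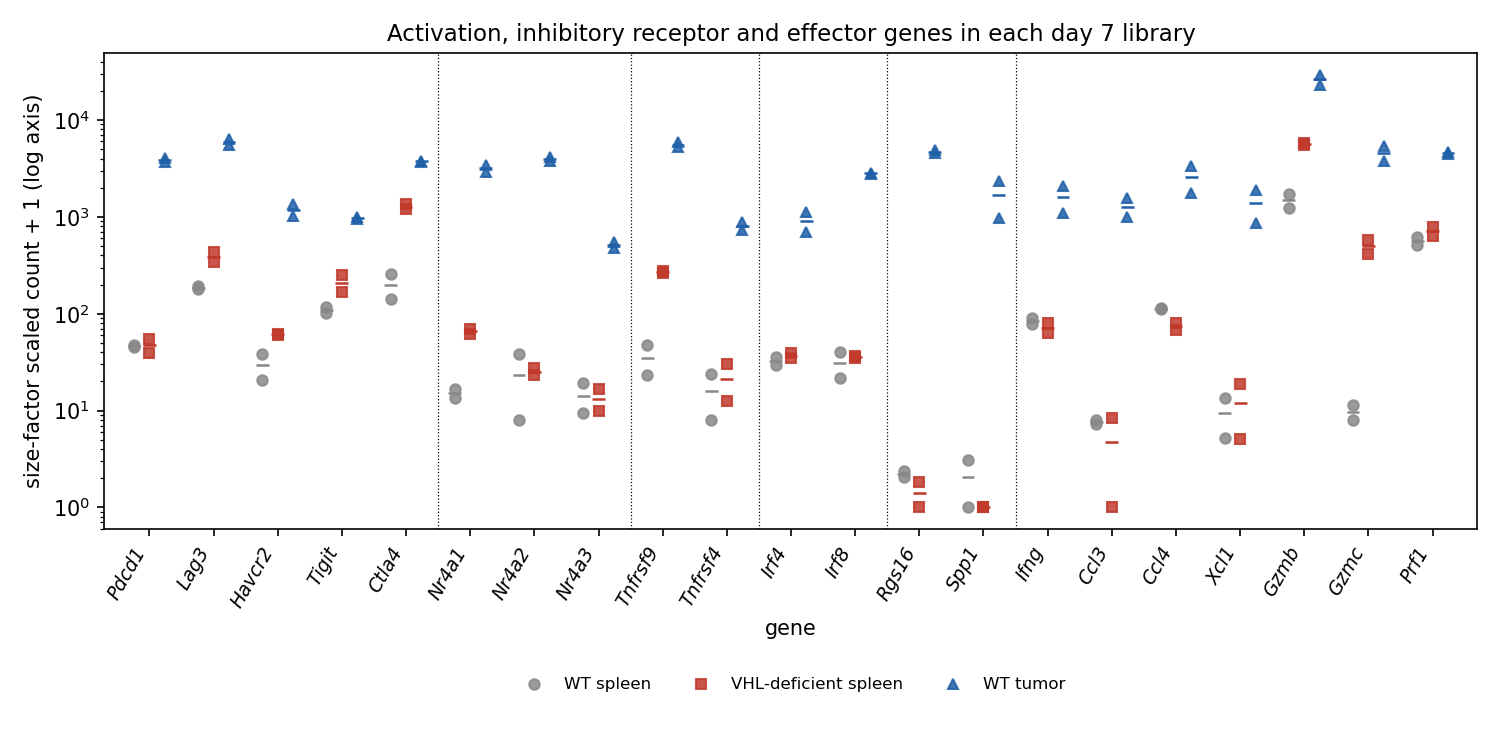
Size-factor scaled count + 1 (log axis) of 21 genes of activation, inhibitory receptors and effector functions, 1 point per library (gray circles WT spleen, red squares VHL-deficient spleen, blue triangles WT tumor) with a dash at each group mean. At Pdcd1, Nr4a2, Irf8, Rgs16 and Spp1 red lies with gray and far below blue, and at Ctla4 and Tnfrsf9 red lies between the other 2.

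Among the 1086 genes that rose in WT tumor, were lower in VHL-deficient spleen than there and had no call against WT spleen were Rgs16, Spp1, Atf3, Serpine2, Serpinb9b and Penk. Rgs16, which turns off G protein signaling, had 4523 and 4870.4 in WT tumor and 1 read in the VHL-deficient and 2 in the WT spleen libraries together. WT tumor was above VHL-deficient spleen by 7720.3 times (95% counting interval 1385 to 304982), and the fitted direct change was -11.76 ± 0.52, adjusted p = 9.41e-12. Spp1, the secreted protein osteopontin, had 980.5 and 2373 in WT tumor, 0 reads in VHL-deficient spleen and 2 in WT spleen, so WT tumor was at least 366-fold above VHL-deficient spleen. Atf3, a stress and immediate early transcription factor, was at 8.94 and 2.46 in VHL-deficient spleen, 903 and 1380.5 in WT tumor and 0 and 4.19 in WT spleen. Atf3 differed directly by -7.57 ± 0.51, adjusted p = 3e-09. Serpine2, a protease inhibitor, was at 6.70 and 17.2 in VHL-deficient spleen, 2387 and 2773 in WT tumor and 36.2 and 6.29 in WT spleen (-7.76 ± 0.54, adjusted p = 5.4e-09), and Serpinb9b, of the same superfamily, at 6.70 and 5.74 in VHL-deficient spleen, 519 and 759.6 in WT tumor and 0 and 7.33 in WT spleen (-6.45 ± 1.17, adjusted p = 0.000462; 0.0588 on voom weights). Penk, which encodes proenkephalin, had 110.2 and 96.4 in WT tumor and 0 reads in VHL-deficient spleen, at least 22.5-fold lower there. Counting intervals and floors cover counting error only.

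Most immediate early genes, which antigen receptor signaling is known to raise, rose in WT tumor. Of 19 immediate early genes, 13 rose in WT tumor and 1 in VHL-deficient spleen, and 10 were lower in VHL-deficient spleen than in WT tumor (6 to 10 over the alternatives tried), with median changes of 2.18, 0.45 and -2.21. Called in either direction were 73.7%, 5.26% and 57.9% of the list, against 21.5%, 3.18% and 21.2% of all genes. Junb, a partner of the AP-1 complex, was at 2693 and 3592 in VHL-deficient spleen, 14268 and 17607 in WT tumor and 1685 and 2372 in WT spleen. Junb differed directly by -2.35 ± 0.33, adjusted p = 3.75e-05. Fosl2, another AP-1 factor, differed by -2.50 ± 0.31, adjusted p = 6.54e-06 and Egr3, induced by calcium signaling, by -3.07 ± 0.35, adjusted p = 2.92e-06. Irf4, which scales with the strength of receptor signaling, was at 38.0 and 33.6 in VHL-deficient spleen, 1116 and 701 in WT tumor and 34.8 and 28.3 in WT spleen. All 4 spleen libraries lay in one range and both tumor libraries were far above it. Irf4 differed directly by -4.59 ± 0.31, adjusted p = 4.07e-09. Irf8, a related factor, was at 33.5 and 35.3 in VHL-deficient spleen, 2779.9 and 2853 in WT tumor and 39.0 and 21.0 in WT spleen. Irf8 differed directly by -6.31 ± 0.34, adjusted p = 2.42e-10.

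Cytotoxic molecules and effector cytokines rose in WT tumor at 15 of 22 genes and in VHL-deficient spleen at 2, and 12 were lower in VHL-deficient spleen than in WT tumor (9 to 13 over the alternatives tried), with 2 higher. Calls in either direction were 68.2% in WT tumor, 9.09% in VHL-deficient spleen and 63.6% directly, where 21.5%, 3.18% and 21.2% of all genes were called. The list's median change was 1.77 in WT tumor, 0.43 in VHL-deficient spleen and -1.56 directly. Ifng, the cytokine interferon gamma, was at 62.6 and 78.8 in VHL-deficient spleen, 1089.5 and 2081 in WT tumor and 76.5 and 90.1 in WT spleen. The 4 spleen libraries overlapped and lay below both tumor libraries. Ifng differed directly by -4.40 ± 0.49, adjusted p = 2.11e-06. Prf1, the pore-forming protein perforin, was at 637 and 790.0 in VHL-deficient spleen, 4495 and 4708 in WT tumor and 626 and 508 in WT spleen. Prf1 differed directly by -2.70 ± 0.47, adjusted p = 0.000337. Serpinb9, which protects killer cells from their own granzymes, was at 603 and 555 in VHL-deficient spleen, 5907 and 4854 in WT tumor and 633 and 521 in WT spleen. Serpinb9 differed directly by -3.21 ± 0.34, adjusted p = 1.16e-06. Gzmb, a granule protease, stood between, at 5838 and 5469 in VHL-deficient spleen, 23044 and 29394 in WT tumor and 1727 and 1236 in WT spleen. It differed from WT tumor by -2.20 ± 0.53, adjusted p = 0.00517, and its difference from WT spleen of 1.95 ± 0.53, adjusted p = 0.0467 was lost on leaving out any 1 of the 6 libraries (adjusted p 0.0523 to 0.311). Gzmc, another granule protease, was at 579 and 413 in VHL-deficient spleen, 3771 and 5364 in WT tumor and 6.96 and 10.5 in WT spleen. It rose by 5.68 ± 0.89, adjusted p = 0.000407 in VHL-deficient spleen, a call lost on voom weights (adjusted p = 0.159), and it differed from WT tumor by -3.20 ± 0.89, adjusted p = 0.0138, lost without VHL-deficient spleen replicate 1 (0.052), VHL-deficient spleen replicate 2 (0.0846) or WT tumor replicate 2 (0.0927, all adjusted p). Gzmd and Gzme had 0 reads in VHL-deficient spleen, while Gzmd had 135 and 98.8 and Gzme 96.0 and 106 in WT tumor, at least 25.5-fold and 22-fold higher. Gzmf was at 4.47 and 0 in VHL-deficient spleen, 205 and 762 in WT tumor and 0 and 6.29 in WT spleen, which is 2 reads in VHL-deficient spleen. On voom weights the adjusted p of the 3 was 0.111, 0.0903 and 0.284. Granzymes are close relatives, and reads could be split between them in the authors' counting.

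Cell division genes separated VHL-deficient spleen from WT tumor, with every mitosis gene called. All 20 mitosis genes rose in WT tumor and all 20 were lower in VHL-deficient spleen than in WT tumor (19 or 20 over the alternatives tried), with medians of 3.49 and -4.20. Of 21 replication genes, 19 rose in WT tumor and 20 were lower in VHL-deficient spleen (17 to 21), with medians of 2.34 and -3.08. In WT tumor and directly, 21.5% and 21.2% of all genes were called. Against WT spleen 1 mitosis gene and 1 replication gene were called, both lower, and the medians were -0.80 and -0.55. These are 5.0% and 4.76% of the lists, near the 3.18% of all genes. Mki67, a mark of cycling cells (chr7:135689784-135716361), was at 210.1 and 190.3 in VHL-deficient spleen, 1297 and 1893 in WT tumor and 219.9 and 252 in WT spleen. The 4 spleen libraries lay together. Mki67 differed directly by -2.96 ± 0.28, adjusted p = 2.76e-07. Top2a, which untangles chromosomes, was at 194 and 249 in VHL-deficient spleen, 2526 and 2808 in WT tumor and 326 and 366 in WT spleen. Top2a differed directly by -3.59 ± 0.38, adjusted p = 1.2e-06. Ccna2, a cyclin of S phase and mitosis, was at 46.9 and 20.5 in VHL-deficient spleen, 1283 and 1933 in WT tumor and 77.9 and 78.6 in WT spleen. Ccna2 differed directly by -5.62 ± 0.60, adjusted p = 1.28e-06. Rrm2, which supplies deoxynucleotides, was at 194 and 147 in VHL-deficient spleen, 2003 and 3939 in WT tumor and 352 and 251 in WT spleen. Rrm2 differed directly by -4.05 ± 0.52, adjusted p = 1.19e-05. 

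Most genes of tissue egress and lymph node homing fell in WT tumor, and 1 of them was called in VHL-deficient against WT spleen. Of 12 tested genes, 8 fell in WT tumor and 2 rose, 6 were higher and 1 lower in VHL-deficient spleen than in WT tumor, and 1 was lower in VHL-deficient than in WT spleen. That comes to 83.3%, 58.3% and 8.33% of the list, where 21.5%, 21.2% and 3.18% of all genes were called. The medians were -1.95, 1.82 and -0.05. S1pr1, the receptor that draws T cells out of tissue towards blood (chr3:115710433-115715072), was at 1562 and 1643 in VHL-deficient spleen, 67.6 and 37.6 in WT tumor and 1289 and 1445 in WT spleen. Each tumor library was below each spleen library of either genotype. S1pr1 differed directly by 4.96 ± 0.51, adjusted p = 7.18e-07. Klf2, the transcription factor that drives S1pr1, was at 277 and 255 in VHL-deficient spleen, 20.7 and 44.7 in WT tumor and 156 and 142 in WT spleen. Klf2 differed directly by 3.08 ± 0.53, adjusted p = 0.000276. Its fall in WT tumor of -2.25 ± 0.53, adjusted p = 0.00474 was lost without WT tumor replicate 1 (adjusted p = 0.0607). Klf3, a related repressor, was at 445 and 300.3 in VHL-deficient spleen, 7.63 and 9.41 in WT tumor and 674 and 577 in WT spleen. Klf3 differed directly by 5.27 ± 0.66, adjusted p = 8.38e-06. S1pr4, a companion of S1pr1, was at 3209 and 2808 in VHL-deficient spleen, 564 and 670.2 in WT tumor and 2606 and 1992 in WT spleen. S1pr4 differed directly by 2.29 ± 0.27, adjusted p = 5.06e-06. Itgb7, an integrin chain of gut homing, was at 15392 and 16572 in VHL-deficient spleen, 1481 and 1559 in WT tumor and 9763 and 3838 in WT spleen. Both VHL-deficient libraries were above all WT libraries, a direct change of 3.39 ± 0.47, adjusted p = 2.82e-05, while WT spleen varied between its libraries. Outside this list, St3gal6, a sialyltransferase, was at 574 and 521 in VHL-deficient spleen, 57.8 and 40.0 in WT tumor and 654 and 546 in WT spleen. St3gal6 differed directly by 3.48 ± 0.33, adjusted p = 3.09e-07. Pik3ip1, an inhibitor of PI3-kinase, was at 769 and 628 in VHL-deficient spleen, 58.9 and 58.8 in WT tumor and 733 and 667 in WT spleen. Pik3ip1 differed directly by 3.54 ± 0.39, adjusted p = 2.13e-06. Mylip, a ubiquitin ligase for lipoprotein receptors, and Abcg1, a cholesterol exporter, had the same pattern, with direct changes of 3.31 ± 0.55 and 3.48 ± 0.65 and changes of -0.43 ± 0.55 and -0.06 ± 0.65 against WT spleen.

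Residency genes did not move as a group between VHL-deficient spleen and WT tumor. Of 20, 5 were higher and 6 lower in VHL-deficient spleen than in WT tumor, and the median direct change, -0.14, turned to 0.11 under scaling without ribosomal and mitochondrial reads. Against WT spleen, 5 rose (2 to 8 over the alternatives tried) and 0 fell in VHL-deficient spleen, where 2.44% of all genes rose. In WT tumor 8 rose and 2 fell, where 13.2% and 8.31% of all genes did. The median changes against WT spleen were 0.997 in VHL-deficient spleen and 0.654 in WT tumor, where all genes stood at 0.04 and 0.08. Itgae, the integrin CD103 that holds T cells to epithelium (chr11:73090583-73147446), was at 250.3 and 619 in VHL-deficient spleen, 2.18 and 4.70 in WT tumor and 102 and 183 in WT spleen. It was nearly absent from both tumor libraries. Itgae differed directly by 6.53 ± 0.68, adjusted p = 9.99e-07, while the change of 1.52 ± 0.68 against WT spleen did not pass (adjusted p = 0.328). Itga1, the integrin CD49a, was at 521 and 447 in VHL-deficient spleen, 103 and 49.4 in WT tumor and 326 and 361 in WT spleen. Itga1 differed directly by 2.74 ± 0.46, adjusted p = 0.000197. Cxcr6, a chemokine receptor of resident cells, was at 14085 and 11551 in VHL-deficient spleen, 4509.6 and 5988 in WT tumor and 7005 and 5520.3 in WT spleen, a direct change of 1.30 ± 0.30, adjusted p = 0.00431, lost without VHL-deficient spleen replicate 1 (adjusted p = 0.0588). Cd69, which retains cells by blocking S1pr1, was at 2224 and 2791 in VHL-deficient spleen, 1671 and 4386 in WT tumor and 1222 and 1244 in WT spleen, overlapped between VHL-deficient spleen and WT tumor, and passed none of the 3 comparisons. Rgs2 and Rgs1, regulators of G protein signaling, were lower in VHL-deficient spleen than in WT tumor by -3.36 ± 0.30 and -2.20 ± 0.36 (adjusted p = 1.47e-07 and 0.000166).

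Most genes of chemokines and their receptors rose in WT tumor. Of 17 tested, 10 rose and 3 fell in WT tumor, 9 were lower and 4 higher in VHL-deficient spleen than in WT tumor, and 1 rose and 1 fell in VHL-deficient spleen against WT spleen. These calls make up 76.5%, 76.5% and 11.8% of the list, where 21.5%, 21.2% and 3.18% of all genes were called. Ccl3, an inflammatory chemokine, was at 0 and 7.38 in VHL-deficient spleen, 990.3 and 1564 in WT tumor and 6.96 and 6.29 in WT spleen. Ccl3 differed directly by -8.75 ± 0.67, adjusted p = 2.51e-08. Ccl4, a related chemokine, was at 67.0 and 79.6 in VHL-deficient spleen, 1752 and 3368 in WT tumor and 113 and 110.0 in WT spleen. Ccl4 differed directly by -5.04 ± 0.44, adjusted p = 1.11e-07. Xcl1, which attracts cross-presenting dendritic cells, was at 17.9 and 4.10 in VHL-deficient spleen, 858 and 1898 in WT tumor and 12.5 and 4.19 in WT spleen. Xcl1 differed directly by -7.02 ± 0.65, adjusted p = 1.9e-07. For these 3 genes both tumor libraries lay far above all 4 spleen libraries. Ccl1, another T-cell chemokine, was at 0 and 13.1 in VHL-deficient spleen, 131 and 247 in WT tumor and 0 in each library in WT spleen, with WT tumor at least 51.6-fold above WT spleen, which had 0 reads. Ccl5, a chemokine of memory and effector CD8+ T cells, ran the other way, with 13776 and 9758 in VHL-deficient spleen, 1112 and 793 in WT tumor and 13934 and 11859 in WT spleen. It fell in WT tumor and stood 3.62 ± 0.58, adjusted p = 0.000135 higher in VHL-deficient spleen, with no call against WT spleen.

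Genes of stem-like and memory T cells were split. Of 14, 8 fell and 3 rose in WT tumor, while 1 rose and 1 fell in VHL-deficient spleen, and directly 3 were higher and 4 lower. Il7r, the receptor for the survival cytokine IL-7 (chr15:9505788-9530176), was at 1899.7 and 2417 in VHL-deficient spleen, 383 and 226 in WT tumor and 3597 and 3874 in WT spleen. VHL-deficient spleen lay below WT spleen without a call (-0.80 ± 0.40, adjusted p = 0.408), and above WT tumor by 2.86 ± 0.40, adjusted p = 3.36e-05. Tcf7, which encodes the stem-like factor TCF-1, was at 306 and 366 in VHL-deficient spleen, 137 and 127 in WT tumor and 1251 and 1364 in WT spleen. All 3 groups were apart, but the changes of -1.96 ± 0.62, adjusted p = 0.101 against WT spleen and 1.33 ± 0.62, adjusted p = 0.133 against WT tumor did not pass; with only these 3 groups in the fit both did (adjusted p = 0.00195 and 0.00403). Bcl2, a survival protein, was at 2443 and 2724 in VHL-deficient spleen, 636 and 569 in WT tumor and 1141 and 1064 in WT spleen, above WT spleen by 1.23 ± 0.22, adjusted p = 0.00216 and above WT tumor by 2.10 ± 0.22, adjusted p = 1.34e-06. Of 14 effector and residency transcription factors, 7 rose in WT tumor and 3 in VHL-deficient spleen, and directly 3 were higher and 5 lower. Id2, a regulator of effector T cells, was at 9964 and 6832 in VHL-deficient spleen, 1485 and 1943 in WT tumor and 4518 and 3242 in WT spleen. Id2 differed directly by 2.28 ± 0.43, adjusted p = 0.000739.

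**Figure D4:**
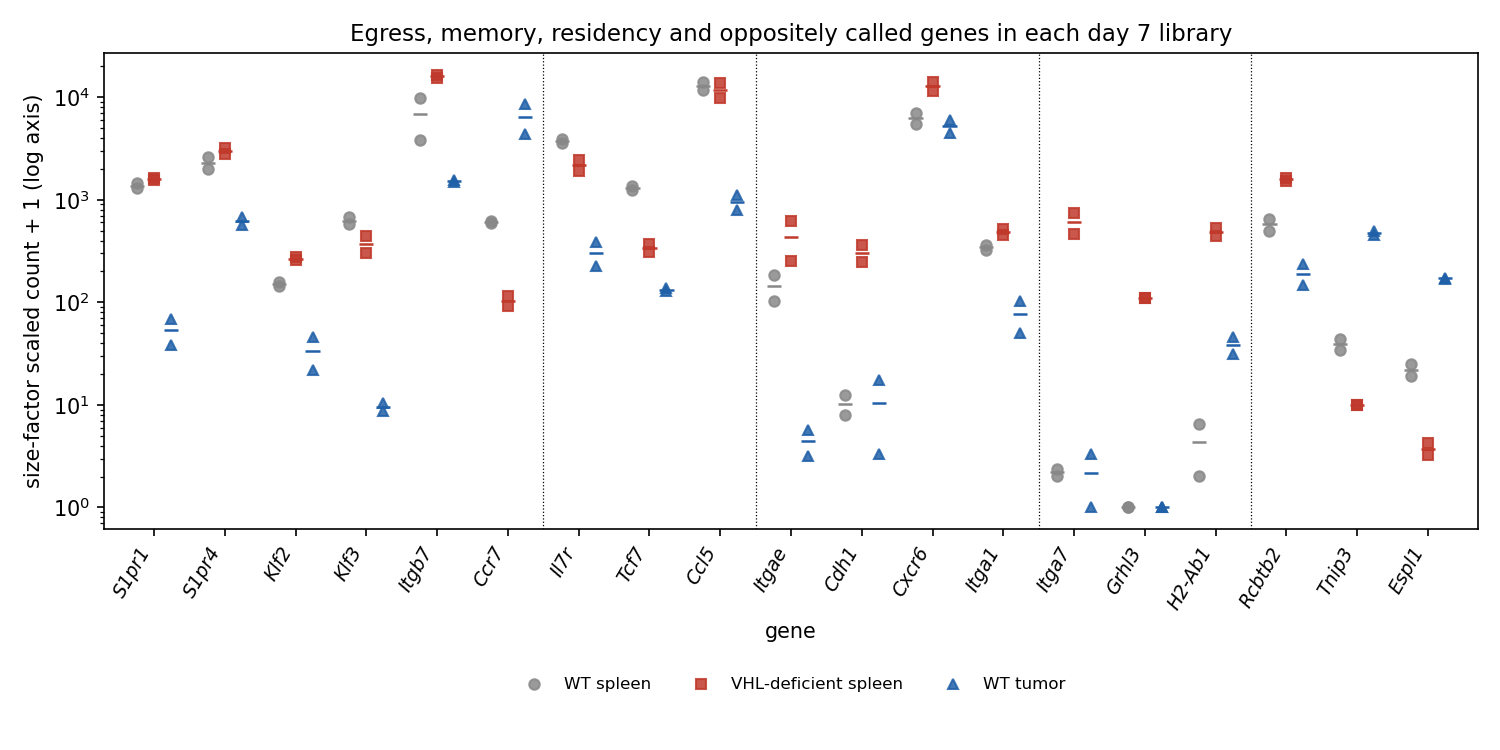
Size-factor scaled count + 1 (log axis) of 19 genes of egress, memory, residency and of opposite calls, 1 point per library (gray circles WT spleen, red squares VHL-deficient spleen, blue triangles WT tumor) with a dash at each group mean. At S1pr1, Klf3, Ccl5 and Itgae red lies near or above gray and far above blue, at Ccr7, Tnip3 and Espl1 red is lowest and blue highest.

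The 37 genes called in opposite directions against WT spleen, 26 that rose in WT tumor and fell in VHL-deficient spleen and 11 of the reverse, included Tnip3 and Ccr7. Tnip3, an inhibitor of NF-kappa-B signaling, was at 8.94 and 9.02 in VHL-deficient spleen, 456 and 496 in WT tumor and 33.4 and 43.0 in WT spleen. Its groups were apart in the order VHL-deficient spleen, WT spleen, WT tumor, with 3.62 ± 0.32, adjusted p = 1.29e-07 in WT tumor, -1.96 ± 0.32, adjusted p = 0.000725 in VHL-deficient spleen (adjusted p = 0.188 on voom weights) and -5.58 ± 0.32, adjusted p = 6.48e-10 directly. Ccr7, the chemokine receptor that guides T cells to lymph nodes (chr11:99144196-99155077), was at 91.6 and 114 in VHL-deficient spleen, 8490.3 and 4417 in WT tumor and 621 and 597 in WT spleen, with 3.33 ± 0.52, adjusted p = 0.000114 in WT tumor and -5.89 ± 0.52, adjusted p = 1.11e-07 directly. Its fall in VHL-deficient spleen, -2.56 ± 0.52, adjusted p = 0.00559, was lost without VHL-deficient spleen replicate 1 (adjusted p = 0.0823) or WT spleen replicate 1 (adjusted p = 0.0535). Espl1, the protease that separates sister chromatids, Itih5, which encodes a hyaluronan-binding protein, and Cenpn, a centromere protein, had 2.23 to 5.74 in the VHL-deficient libraries, 105 to 299 in WT tumor and 16.7 to 43.1 in WT spleen. Their fall in VHL-deficient spleen, -2.56 ± 0.51, -2.43 ± 0.49 and -2.91 ± 0.60, was lost without VHL-deficient spleen replicate 1 (adjusted p = 0.0746, 0.152 and 0.0836); that of Espl1 and Itih5 was also lost without WT spleen replicate 2 (adjusted p = 0.0684 and 0.127), and that of Cenpn without WT spleen replicate 1 (adjusted p = 0.139). The rise of Cenpn in WT tumor was lost without WT spleen replicate 2 or WT tumor replicate 2 (adjusted p 0.106 to 0.119). Rcbtb2, whose product has RCC1 and BTB domains, ran the other way at 1623 and 1538 in VHL-deficient spleen, 145 and 233 in WT tumor and 648 and 499.8 in WT spleen, 1.47 ± 0.27, adjusted p = 0.00274 in VHL-deficient spleen and -1.63 ± 0.27, adjusted p = 0.00027 in WT tumor; the rise was lost without WT spleen replicate 2 (adjusted p = 0.0611). The number of such genes was 20, 7, 6 and 22 without VHL-deficient spleen replicate 1, WT spleen replicate 1, WT spleen replicate 2 and WT tumor replicate 2.

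Of the 350 genes that rose in VHL-deficient spleen, 147 (42.0%) showed no call in WT tumor, and 112 of them (32.0%) were also above WT tumor directly. Itga7, an integrin chain that binds laminin (chr10:128933818-128958282), had 467 and 734 in VHL-deficient spleen, 1 read in WT tumor and 2 in WT spleen. That was 889 times (95% counting interval 159 to 35152) the level of WT tumor and 554 times (95% counting interval 153 to 4582) that of WT spleen. Grhl3, a transcription factor of epithelia, had 109.5 and 108 in VHL-deficient spleen and 0 reads in all 4 WT libraries, at least 21.1-fold above WT tumor. Rapgef3, a cyclic-AMP-activated exchange factor for Rap (46.9 and 48.4), Myl7, a myosin light chain of heart atria (38.0 and 40.2), and Endou, an endoribonuclease (40.2 and 36.1), had the same pattern, at least 9.23-fold, 7.57-fold and 7.39-fold above WT tumor. Zfp618, a zinc finger protein, had 51.4 and 68.1 in VHL-deficient spleen, 1 read in WT tumor and 0 in WT spleen, 85.4 times (95% counting interval 15 to 3404) the level of WT tumor. Mboat2, a phospholipid acyltransferase, was at 78.2 and 91.9 in VHL-deficient spleen, 1.09 and 21.2 in WT tumor and 0 and 4.19 in WT spleen; its direct change, 3.66 ± 0.85, adjusted p = 0.00391, was lost without WT tumor replicate 1 (adjusted p = 0.105). Rgs11, a regulator of G protein signaling, was at 1457 and 1871 in VHL-deficient spleen, 81.8 and 89.4 in WT tumor and 45.9 and 85.9 in WT spleen. Rgs11 differed directly by 4.26 ± 0.40, adjusted p = 2.04e-07. Igf1r, the receptor for insulin-like growth factor 1, was at 532 and 481 in VHL-deficient spleen, 30.5 and 23.5 in WT tumor and 13.9 and 18.9 in WT spleen. Igf1r differed directly by 4.19 ± 0.55, adjusted p = 1.54e-05. Pygl, a glycogen phosphorylase, was at 1006 and 1114 in VHL-deficient spleen, 70.9 and 75.3 in WT tumor and 26.4 and 22 in WT spleen. Pygl differed directly by 3.84 ± 0.49, adjusted p = 1.08e-05. Unlike the genes before it, Pygl was also called in WT tumor against WT spleen (1.56 ± 0.49, adjusted p = 0.0279), a call lost without any 1 of the 4 WT libraries (adjusted p 0.0719 to 0.144). St6gal1, a sialyltransferase, was at 434 and 553 in VHL-deficient spleen, 24.0 and 21.2 in WT tumor and 43.1 and 112 in WT spleen. St6gal1 differed directly by 4.38 ± 0.63, adjusted p = 4.56e-05. Lpar6, a lysophospholipid receptor (1649 and 1243 in VHL-deficient spleen, 66.5 and 80.0 in WT tumor and 927 and 778 in WT spleen), Rasgrp2, an activator of Rap (959 and 935 in VHL-deficient spleen, 56.7 and 72.9 in WT tumor and 709.7 and 788 in WT spleen), and Cd55, a complement inhibitor (688 and 531 in VHL-deficient spleen, 39.3 and 47.0 in WT tumor and 270.0 and 397 in WT spleen), differed directly by 4.28 ± 0.34, 3.86 ± 0.37 and 3.78 ± 0.38, were lower in WT tumor than in WT spleen and had no call in VHL-deficient spleen against WT spleen.

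There were 39 genes called lower in VHL-deficient spleen than in both other groups with no call between those 2. Samd3, a protein with a sterile alpha motif, was at 17.9 and 27.9 in VHL-deficient spleen, 152 and 167 in WT tumor and 178 and 208 in WT spleen. Both VHL-deficient libraries were below all WT libraries. Samd3 differed directly by -2.78 ± 0.43, adjusted p = 9.22e-05, and by -3.05 ± 0.43, adjusted p = 0.000113 against WT spleen. Btla, an inhibitory receptor, was at 2.23 and 20.5 in VHL-deficient spleen, 86.2 and 77.6 in WT tumor and 177 and 192 in WT spleen, -3.31 ± 0.78, adjusted p = 0.00438 and -4.47 ± 0.78, adjusted p = 0.00121. Both calls of Btla were lost without VHL-deficient spleen replicate 1 (adjusted p = 0.127 and 0.063). E2f8, a repressor of the cell cycle, had 0 reads in VHL-deficient spleen and 46.9 and 72.9 in WT tumor, at least 13.1-fold higher there; its call against WT spleen (9.74 and 11.5, -3.54 ± 0.94, adjusted p = 0.0424) was lost without any 1 of the 4 spleen libraries (adjusted p 0.142 to 0.215). Scrn2, Rogdi, Ccdc146 and Tesk2 had 0 to 14.8 in the VHL-deficient libraries, and each of their calls against WT spleen was lost on leaving out at least 1 library; without VHL-deficient spleen replicate 1 the adjusted p of Scrn2, Rogdi and Ccdc146 was 0.586, 0.166 and 0.312, and without VHL-deficient spleen replicate 2 that of Tesk2 was 0.0693. Their direct calls were lost as well, the first 3 without VHL-deficient spleen replicate 1 (adjusted p = 0.0942, 0.0555 and 0.283) and Tesk2 without WT tumor replicate 2 (adjusted p = 0.0537).

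No gene of 3 further metabolic lists was called between VHL-deficient and WT spleen by limma, also on voom weights, where 3.18% of all genes were called, so a count of 0 in lists of this size sets none of them apart. At an unadjusted p under 0.05 there were 2 of the serine, one-carbon and ATF4 genes (1 higher and 1 lower), 2 of the TCA-cycle genes (both lower) and 0 of the oxidative phosphorylation genes, and 1 TCA-cycle gene was called lower in the fit without the VHL-deficient nonTrm library that stood apart. Of 19 serine, one-carbon and ATF4 genes, 9 rose in WT tumor, and 12 were lower in VHL-deficient spleen than in WT tumor (9 to 13 over the alternatives tried), with 1 higher. In either direction 47.4% of the list was called in WT tumor and 68.4% directly, where 21.5% and 21.2% of all genes were. The medians were 1.71 in WT tumor, -0.17 in VHL-deficient spleen and -1.61 directly. Mthfd2, a mitochondrial folate enzyme, was at 112 and 115 in VHL-deficient spleen, 856 and 1098 in WT tumor and 259 and 236 in WT spleen. Mthfd2 differed directly by -3.09 ± 0.36, adjusted p = 4.29e-06. Psat1 and Phgdh, of serine synthesis, were at 212 and 165 in VHL-deficient spleen, 1023 and 1265 in WT tumor and 206 and 245 in WT spleen, and at 304 and 208 in VHL-deficient spleen, 849.6 and 1383 in WT tumor and 263 and 262 in WT spleen, -2.60 ± 0.38 and -2.11 ± 0.34 directly. For each, the VHL-deficient libraries lay below both tumor libraries. Atf4, the transcription factor of this response, differed by -1.30 ± 0.29, adjusted p = 0.00307. Atp5b, the catalytic chain of ATP synthase, was at 3909 and 3813 in VHL-deficient spleen, 8766 and 12800.5 in WT tumor and 4088 and 3288 in WT spleen. Atp5b differed directly by -1.46 ± 0.28, adjusted p = 0.000747. Of 31 nuclear genes of oxidative phosphorylation, 7 rose in WT tumor (1 to 16), 0 were called in VHL-deficient spleen, and 7 were lower there than in WT tumor (1 to 13). Each of these 2 counts of 7 is 22.6% of the list. Of all genes, 13.2% rose in WT tumor and 11.5% were lower in VHL-deficient spleen than in WT tumor. Called in either direction were 21.5% and 21.2% of all genes. Their median in VHL-deficient spleen, 0.07, turned to -0.07 under scaling without ribosomal and mitochondrial reads. Of 17 TCA-cycle and pyruvate dehydrogenase genes, 5 were lower in VHL-deficient spleen than in WT tumor and 0 differed from WT spleen. The 5 are 29.4% of the list, where 11.5% of all genes were lower and 21.2% were called in either direction.

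**Figure D5:**
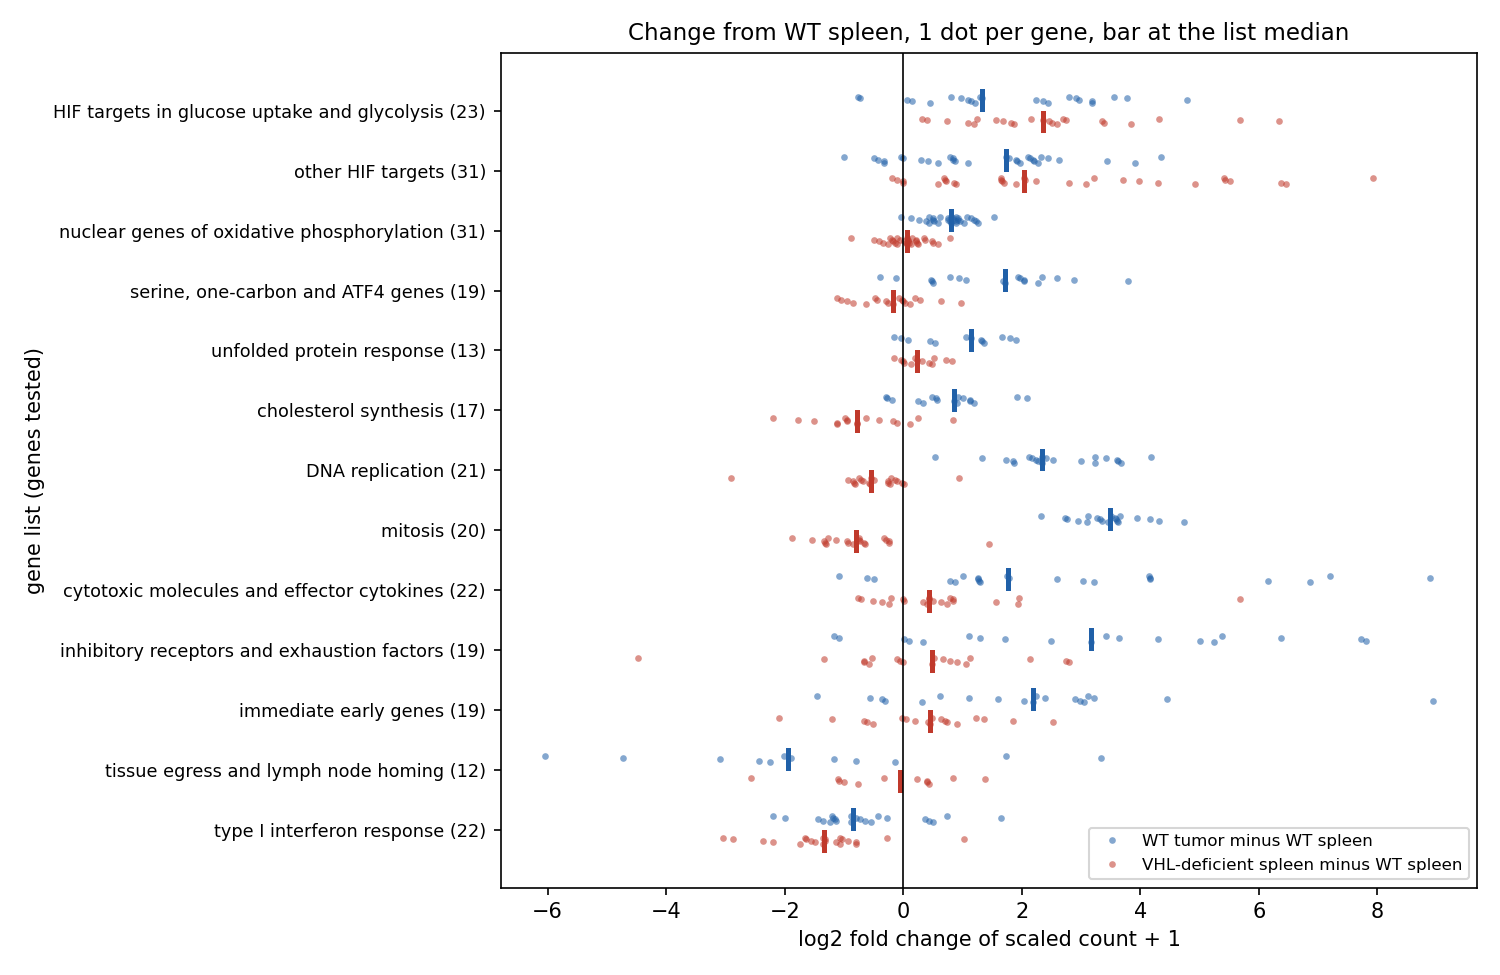
Log2 fold change from WT spleen (horizontal axis) of every tested gene of 13 lists, in WT tumor (blue) and VHL-deficient spleen (red), with a bar at each list's median. For the glycolytic HIF targets the medians are 1.32 and 2.35, and for mitosis 3.49 and -0.80. Outside the HIF lists the red medians run from -1.34 (type I interferon response) to 0.48 (inhibitory receptors and exhaustion factors), and single genes lie further out.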

How the data were processed

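The deposited table holds, for 22 libraries and 46297 rows, a signal that the authors made from read counts: each value minus an offset of 1 is a whole multiple of the worth of 1 read in its library (100% of values within 0.01 read), that is a count divided by a size factor. Per the submitters' processing notes, STAR, featureCounts and DESeq were used with mm10, without versions. The header of the table gives 55 samples; 22 were analysed here. Per the labels' protocols, RNA came from sorted cells in lysis buffer and libraries from the PrepX kit.

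Values minus 1 were called scaled counts, and multiples were converted back to reads for depths, floors and counting intervals. Testing covered the 14327 genes that reached a scaled count of 10 or more in 2 or more libraries. It used limma 3.58.1 in R 4.3.3 on log2(scaled count + 1), fitted to 22 libraries in 10 groups, which leaves 12 residual degrees of freedom, with a mean-variance trend, two-sided, with Benjamini-Hochberg adjustment and calls under 0.05. A fold change on this scale understates the change of low genes. The p-values measure only the spread between these libraries; that the replicates came from separate animals is known only from the series text. The design had assumed that a count model could serve as an alternative; because of the offset the deposited unit is a signal, and limma with voom weights on the converted reads took its place. The fit was also run on simulated data with known changes, and the outcome of that run is not given here. Tables and figures were made in Python 3.11.15 with pandas 2.3.3 and matplotlib 3.10.9.

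The comparison, its members and the gene lists were chosen with earlier results of these data known. Named genes are 28 set ones, of which 1 is not reported here, the largest changes that pass in the direct comparison and above the median level (6.08 on the log2 scale), the genes called the same way or in opposite ways, those called in WT tumor and directly but not in VHL-deficient spleen, those called in VHL-deficient spleen against both others, and up to 4 members per list by adjusted p; unnamed gene models, receptor segments and Y-linked genes were left out. Other list members were named after their values were seen. Gene positions are those of the GENCODE annotation of mm10 (GRCm38.p6) and were found for 97.2% of tested genes.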

Additional observations from a re-analysis of the deposited data

How the results depend on the processing

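Leaving out 1 of the 6 libraries in turn moved the number of genes called between VHL-deficient spleen and WT tumor from 3041 to between 1648 and 2949, between WT tumor and WT spleen from 3079 to between 1486 and 3004, and between VHL-deficient and WT spleen from 455 to between 231 and 466. The last count was 241 with only the 3 groups in the fit and 270 on voom weights. The counts over 2 comparisons were put through the alternatives after the data had been seen. Genes called higher in both numbered 192, and 127 with a pseudocount of 5, 103 with only the 3 groups, 75 on voom weights and 123 to 175 without 1 library. Genes called lower in both numbered 24, and 137 with no filter, 38 with a pseudocount of 5, 15 with only the 3 groups, 48 without the nonTrm library that stood apart and 4 to 21 without 1 library. Genes called in opposite directions numbered 37, and 12 with only the 3 groups, 72 without that nonTrm library, 11 on voom weights and 6 to 32 without 1 library. The cause was not tested, beyond the fewer libraries in some of these fits.

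With the replicate number as a block, 2789, 2770 and 389 genes were called. The labels give the same numbers to all groups, and the differences between replicates 1 and 2 correlated at 0.12, -0.07 and -0.10 between pairs of groups. Depth and ribosomal share of single libraries also enter these differences. The correlations therefore cannot show whether samples of the same number were paired.

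Over the single genes of the lists and the named genes, 25943 results under an alternative kept their side of the threshold, of which 576 changed sign without a call, 1165 lost a call, 285 gained one and 0 changed sign while called. Of the counts of list members called, 3490 stayed within 1.5 times and 386 moved further. Single libraries of 2 per group decide many of the weaker calls. The planned edgeR test was not run, since the deposited values are no counts as they stand.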

Other observations

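Most interferon-stimulated genes lay lower in VHL-deficient than in WT spleen, but few of them passed the adjusted threshold. At an unadjusted p under 0.05, 16 of the 22 tested were lower and 0 higher. At that threshold 1904 of all 14327 genes differed in either direction. Of 22 tested, 4 fell (1 to 9 over the alternatives tried), 18.2% where 0.733% of all genes did, and 0 rose. The median change was -1.34, where all genes stood at 0.04. In WT tumor against WT spleen 3 fell (0 to 9 over the alternatives tried) and 1 rose, 18.2% where 21.5% of all genes were called. The median change there was -0.84, where all genes stood at 0.08. The 3 genes that fell in WT tumor were called neither in VHL-deficient against WT spleen nor directly. These calls therefore do not show whether that fall was shared. Ifi213, outside this list, fell in both, as given above. Directly, 3, which is 13.6% against 11.5% of all genes, were lower in VHL-deficient spleen than in WT tumor. Ifit2, an antiviral RNA-binding protein, was at 8.94 and 37.7 in VHL-deficient spleen, 67.6 and 44.7 in WT tumor and 150.3 and 135 in WT spleen, a change of -2.87 ± 0.54, adjusted p = 0.00279 against WT spleen that was lost without VHL-deficient spleen replicate 1 (adjusted p = 0.121).

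Genes of the unfolded protein response rose in WT tumor at 8 of 13 members and in VHL-deficient spleen at 0, and 7 were lower in VHL-deficient spleen than in WT tumor (2 to 7 over the alternatives tried). The 8 are 61.5% of the list, where 13.2% of all genes rose, and the 7 are 53.8%, where 11.5% were lower. Hspa5, the chaperone BiP of the endoplasmic reticulum, was at 2219 and 2683 in VHL-deficient spleen, 8275 and 8409.8 in WT tumor and 2311 and 2166 in WT spleen, and the 4 spleen libraries overlapped, with a direct change of -1.77 ± 0.29, adjusted p = 0.000188. Of 17 cholesterol synthesis genes, 2 rose in WT tumor, 11.8% where 13.2% of all genes rose, and 0 were called in VHL-deficient against WT spleen. In VHL-deficient spleen 9 were lower than in WT tumor, 52.9% where 11.5% of all genes were. That count ran from 1 to 11 over the alternatives tried. Cyp51, a demethylase of that route, was at 71.5 and 41.0 in VHL-deficient spleen, 597 and 348 in WT tumor and 104 and 108 in WT spleen, a direct change of -3.05 ± 0.54, adjusted p = 0.000396. In TGF-beta signaling, Smad3, which carries the signal to the nucleus, was at 521 and 407 in VHL-deficient spleen, 103 and 28.2 in WT tumor and 369 and 396 in WT spleen, with both tumor libraries below all spleen libraries and a direct change of 3.07 ± 0.62, adjusted p = 0.0013. Tgfb1, the ligand, went the other way at 29.1 and 23.0 in VHL-deficient spleen, 90.5 and 87.0 in WT tumor and 40.4 and 23.0 in WT spleen, a direct change of -1.74 ± 0.37, adjusted p = 0.00209. Of the 12 tested TGF-beta genes 3 were higher and 3 lower in VHL-deficient spleen than in WT tumor. Between VHL-deficient and WT spleen limma called 0 genes of these 3 lists, also on voom weights; at an unadjusted p under 0.05 there were 1 higher unfolded protein, 5 lower cholesterol and 1 higher TGF-beta gene. With 3.18% of all genes called, a count of 0 sets no list of this size apart.

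Cdh1, which encodes E-cadherin, the binding partner of CD103 (Itgae), was high in both VHL-deficient libraries, with 244 and 365 in VHL-deficient spleen, 16.4 and 2.35 in WT tumor and 6.96 and 11.5 in WT spleen. It was above WT tumor by 5.29 ± 1.29, adjusted p = 0.00564, a call lost without WT tumor replicate 2 (adjusted p = 0.0916), and above WT spleen by 4.91 ± 1.29, adjusted p = 0.039, lost without any 1 of the 4 spleen libraries (adjusted p 0.13 to 0.222). It was picked out after its values were seen.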
